A study of Homo sapiens with 15 samples.

Results

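KLF5 was knocked down in HCC95 cells, a human cell line derived from lung squamous cell carcinoma (LUSC), with the siRNA named siKLF5b, and the cells were compared with HCC95 cells given the negative control siRNA, siNC1. The comparison took in 6 of the 15 RNA-seq libraries of the study, 3 labelled siKLF5b and 3 labelled siNC1, chosen by their labels alone, and every gene was described, whether it fell or rose. The other 9 libraries were HCC95 cells given siTP63b, siSOX2b or siGRHL2a, 3 each. The sources used here do not give the time from transfection to RNA isolation, and they do not say whether libraries of a group came from separate cultures, so the p-values below measure the spread between these libraries, which may be technical. A single siRNA per gene and a single cell line limit both groups as models of KLF5 loss.

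KLF5 is a zinc-finger transcription factor of the Krüppel-like family, whose members bind GC-rich elements, the GC box and the CACCC box. It is known for promoting proliferation in basal epithelial cells and is counted among the master regulators of squamous carcinomas together with SOX2 and p63. In stratified epithelium, basal cells that hold the keratins KRT5, KRT14 and KRT15 give rise to layers that cornify, and KRT6A, KRT16 and KRT17 are keratins of activated or wounded epithelium.

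The libraries held 18947986 to 24845273 counts in siNC1 and 15655495 to 24524882 counts in siKLF5b, so the siKLF5b group contained the shallowest of the 6. Levels are given as CPM, counts scaled to library size with TMM factors. Gene lengths do not enter CPM, so that levels were compared between groups for 1 gene and not between genes. Replicates correlated at 0.992 to 0.994 within a group and at 0.985 to 0.987 between groups, and the first principal component, with 50.4% of the variance, separated the groups. Summed CPM of the 12 squamous markers was 10445 to 11928 in siNC1 and 6787 to 7770 in siKLF5b, and each of them was detected. Most of that sum was KRT5. In siKLF5b 9 of the 12 were lower, while SOX2, DSG3 and PERP were higher. Markers of other cells were low. The 6 leukocyte markers summed to 33.2 to 35.8 CPM in siNC1 and 21.3 to 24.1 CPM in siKLF5b, nearly all of it CD68, with 4 of the 6 at no more than 3 counts in every library. The 7 fibroblast markers summed to 49.3 to 59.2 and 23.5 to 38.8 CPM, mostly THY1, the 5 endothelial markers to 14.3 to 14.8 and 11 to 13 CPM, mostly VWF, and the alveolar, airway and neuroendocrine markers to no more than 3.01 CPM in any library.

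The targeted gene was examined first. KLF5 (ENSG00000102554.14, hg38 chromosome 13, 73054976 to 73077541, plus strand) measured 120, 106 and 105 CPM in the siNC1 libraries and 71.1, 70.4 and 72.8 CPM in the siKLF5b libraries. Every siKLF5b library was below every siNC1 library. The log2 fold change (log2FC, siKLF5b minus siNC1) was -0.62 with a standard error (SE) of 0.047 and an adjusted p of 1.3e-09 by edgeR's quasi-likelihood test. This 1.54-fold lower level, counted over the whole gene with its introns, was short of the fold threshold of 0.75 on the log2 scale. The study set that threshold for differentially expressed genes (DEGs), so the targeted gene itself was not counted among them. The study also examined KLF5 protein after siRNA by western blot, which these counts do not measure. An exact two-sided permutation test over the 6 libraries gave p = 0.10, the smallest that 3 against 3 allows.

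Across 22514 genes tested, 396 were called lower (1.76%) and 694 higher (3.08%) in siKLF5b, taking an adjusted p under 0.05 together with a log2FC beyond 0.75 in either direction. By adjusted p alone, 3998 genes (17.8%) were lower and 3843 (17.1%) higher, so that most of the detected differences were small. Among protein-coding genes the calls were nearly even, with 282 lower (1.93%) and 297 higher (2.03%) of 14630. By adjusted p alone, 3327 protein-coding genes (22.7%) were lower and 2418 (16.5%) higher. The called genes were mostly of low level, with a median siNC1 mean of 2.88 CPM for those called lower and 1.25 CPM for those called higher against 10.7 CPM for all genes tested. Among genes averaging 100 counts or more, 137 were called lower and 183 higher. Every siKLF5b library was below every siNC1 library in 374 of the 396 genes called lower, against 22.6% of all genes tested, and above every siNC1 library in 656 of the 694 called higher, against 22.8%.

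**Figure D1:**
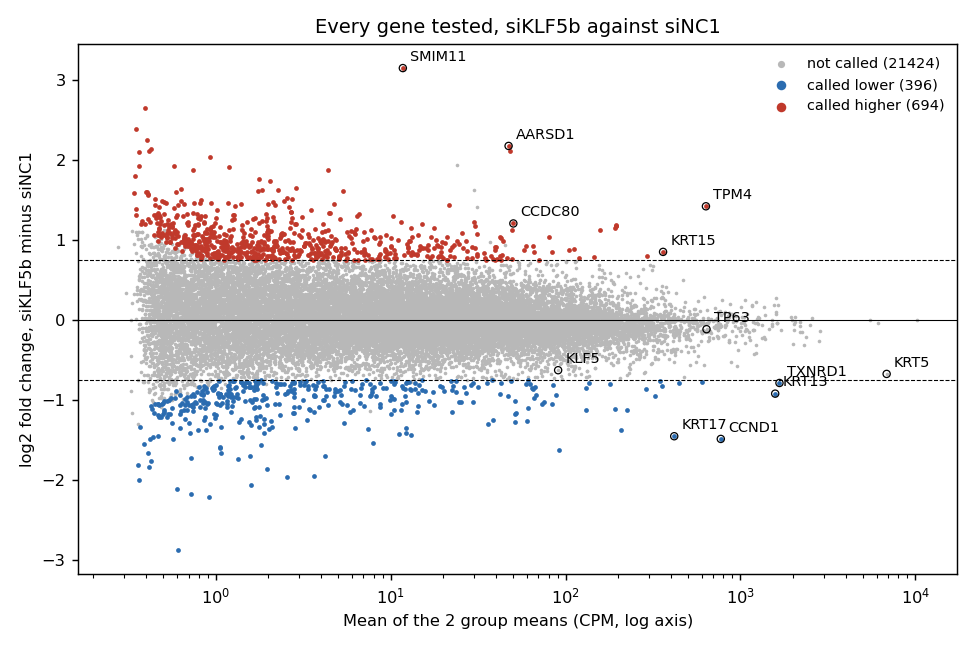
Each point is a gene tested, with the mean of the siNC1 and siKLF5b means in CPM on a log axis and the log2 fold change, siKLF5b minus siNC1, on the vertical axis; dashed lines mark the fold threshold of 0.75. The 396 genes called lower and 694 called higher lie mostly at low levels, while CCND1, KRT17, KRT13 and TPM4 are called at high levels and KLF5 and KRT5 lie inside the threshold.

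The largest decreases among well-counted coding genes were led by cyclin D1 and by keratins. CCND1, which partners CDK4 and CDK6 in G1, measured 1134, 1138 and 1140 CPM in siNC1 and 398, 406 and 416 CPM in siKLF5b. The groups lay far apart. The log2FC of -1.48 (SE 0.037, adjusted p = 3.4e-17) was the largest decrease among called coding genes averaging 100 counts or more whose groups did not overlap. CCND1 lies on chromosome 11 from 69641156 to 69654474, on the plus strand. Its opposite-strand neighbour LTO1, which acts in the maturation of iron-sulphur proteins, overlaps it and fell with it, from 298 ± 4.26 to 115 ± 7.40 CPM (SD, n = 3 each; log2FC -1.37), and since the sources do not state whether strand was used in counting, reads of the pair cannot be told apart. KRT17 measured 652, 603 and 582 CPM in siNC1 and 204, 234 and 235 CPM in siKLF5b (log2FC -1.45, SE 0.049, adjusted p = 2.6e-15).

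UGCG, the glucosylceramide synthase that starts glycosphingolipid synthesis, was at 86.5, 83.3 and 86.1 CPM in siNC1 and 35.2, 35.9 and 35.9 CPM in siKLF5b (log2FC -1.26). Replicates of this gene differed by a few CPM at most and the groups by about 50. IFFO2, an intermediate filament family protein, fell from 51.4 ± 1.60 to 21.0 ± 2.69 CPM (log2FC -1.30). ANKRD1, a cardiac ankyrin repeat protein and a target of YAP and TEAD, fell from 17.5 ± 1.05 to 6.85 ± 0.829 CPM (log2FC -1.35). CDKN1A, which encodes the cyclin-dependent kinase inhibitor p21, fell as CCND1 did, from 10.7 ± 1.23 to 4.13 ± 0.315 CPM (log2FC -1.36). The carboxypeptidase CPA4 fell from 18.9 ± 1.49 to 7.09 ± 0.912 CPM (log2FC -1.43) and sciellin (SCEL), a precursor of the cornified envelope, from 17.8 ± 0.907 to 6.67 ± 0.385 CPM (log2FC -1.42). KRT6A, KRT14 and KRT80, described with the keratins below, completed the 12.

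TPM4 showed the clearest increase. This gene, which encodes a cytoskeletal tropomyosin that coats actin filaments, measured 349, 348 and 338 CPM in siNC1 and 892, 903 and 980 CPM in siKLF5b (log2FC 1.42, SE 0.040, adjusted p = 1.7e-16). The lowest siKLF5b library stood well above the highest siNC1 library. ZNF664, a zinc-finger gene, rose from 118 ± 2.26 to 269 ± 4.34 CPM (log2FC 1.18), and RFLNA, an actin regulator, gave nearly the same values because the spans overlap and the counts on them are nearly equal (100.4% of those on ZNF664), so that they stand for 1 change. CCDC80, a matrix-associated protein, measured 31.3, 28.5 and 31.3 CPM in siNC1 and 65.7, 74.5 and 70.7 CPM in siKLF5b (log2FC 1.21).

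PIK3C2G, a class II phosphoinositide 3-kinase, had the largest log2FC of the 12 increases, 1.61 (SE 0.134), from 2.98, 2.52 and 2.38 CPM in siNC1 to 8.64, 7.90 and 7.47 CPM in siKLF5b. The overlapping gene RERGL, on the opposite strand, held 37.5% as many counts. RERG, a Ras-like growth inhibitor, rose from 2.54 ± 0.180 to 6.93 ± 0.698 CPM (log2FC 1.45), with PTPRO on the opposite strand holding 63.2% as many counts. NTN4, a basement membrane netrin, rose from 17.9 ± 1.2 to 41.9 ± 1.84 CPM (log2FC 1.23), with PGAM1P5 on the opposite strand holding 72.0% as many counts. Other increases among them were ZW10, a kinetochore protein (log2FC 1.17), ZNF845 (1.21), OGFR, the opioid growth factor receptor (1.30), and GPAA1, a subunit of the GPI transamidase (1.15). In each of these 12 genes and of the 12 decreases the groups did not overlap, as the rule for naming them required.

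**Figure D2:**
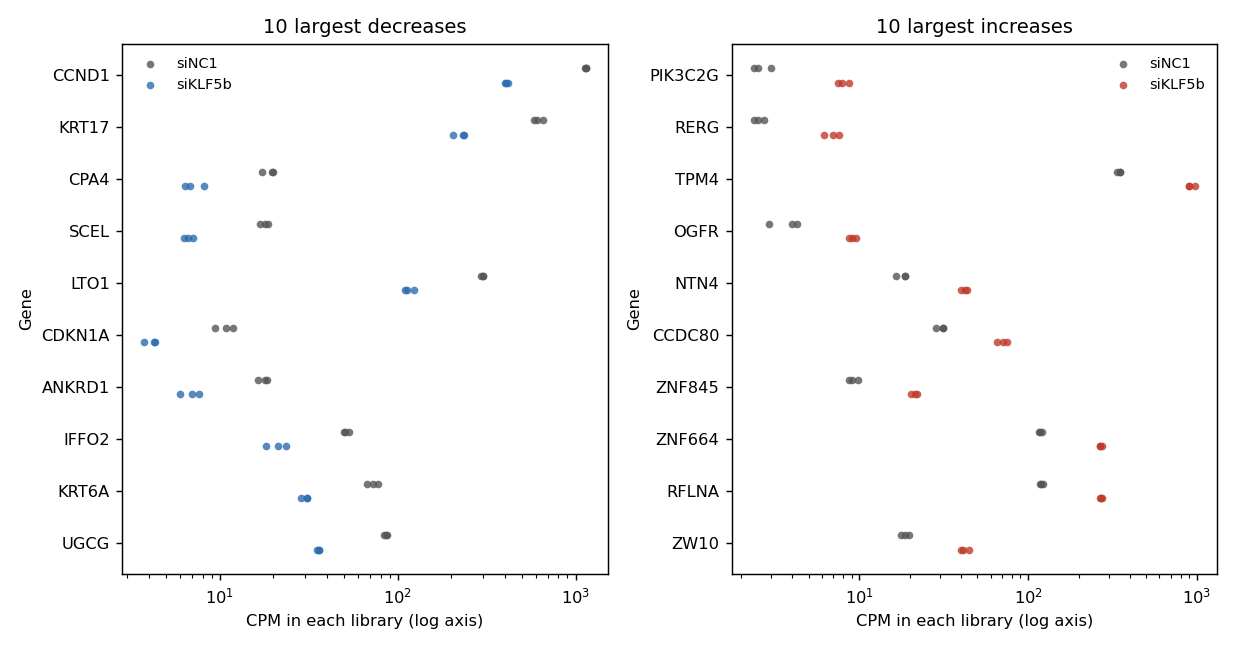
CPM of each library on a log axis for the 10 largest decreases and the 10 largest increases among called coding genes averaging 100 counts or more whose groups did not overlap. Grey points are the 3 siNC1 libraries and coloured points the 3 siKLF5b libraries. CCND1 lies at 1134 to 1140 CPM in siNC1 and 398 to 416 CPM in siKLF5b, and TPM4 at 338 to 349 and 892 to 980 CPM.

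KLF factors are known to bind GC and CACCC boxes, so the promoters of called genes were searched for these letters. RefSeq windows on GRCh38.p14, from 250 bases before to 50 after a gene's start, were matched by symbol to 11407 of the 14630 protein-coding genes tested. The letters GGGCGG or their reverse complement CCGCCC were present in 63.6% of the 275 windows of genes called lower, 39.8% of the 327 windows of genes called higher and 63.4% of the 16795 windows of all genes tested. CACCC or GGGTG was present in 73.5%, 56.6% and 63.4%, and the longer GGGTGTGG or CCACACCC, which contains the shorter letters, in 3.64%, 2.14% and 2.99%. The windows also differed in composition, with a median GC content of 65.7% for genes called lower, 56.3% for genes called higher and 64.3% for all, and the part of GC content in these shares was not tested.

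The 150 bases before the start are shown for 3 of the leading decreases and 1 of the leading increases, all of them outside every gene of the deposited table, so that the boxes can be seen in place. Capitals mark the GC box and CACCC letters on either strand as given above, and each sequence runs 5′ to 3′ on the strand of its gene. ANKRD1 (chr10:90921088-90921237, minus strand), IFFO2 (chr1:18956677-18956826, minus strand), UGCG (chr9:111896664-111896813, plus strand) and ZNF845 (chr19:53333599-53333748, plus strand) read as follows.
ANKRD1: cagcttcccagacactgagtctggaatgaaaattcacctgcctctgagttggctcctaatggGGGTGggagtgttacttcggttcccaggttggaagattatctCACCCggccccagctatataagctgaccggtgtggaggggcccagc
IFFO2: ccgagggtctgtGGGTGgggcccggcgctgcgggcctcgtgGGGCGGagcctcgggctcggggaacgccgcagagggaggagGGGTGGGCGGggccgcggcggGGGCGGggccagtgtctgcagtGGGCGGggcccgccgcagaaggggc
UGCG: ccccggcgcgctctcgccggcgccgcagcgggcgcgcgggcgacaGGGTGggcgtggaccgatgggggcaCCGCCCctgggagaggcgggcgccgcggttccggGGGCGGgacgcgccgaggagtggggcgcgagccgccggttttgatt
ZNF845: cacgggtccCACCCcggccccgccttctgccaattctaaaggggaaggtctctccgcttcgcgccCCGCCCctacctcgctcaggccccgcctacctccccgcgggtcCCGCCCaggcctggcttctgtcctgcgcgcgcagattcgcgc
IFFO2 held 6 such matches, some of them overlapping, ZNF845 3, UGCG 3 and ANKRD1 2. A match is a description of the letters and no evidence of binding, and the gene that rose held boxes as the genes that fell did.

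Genes were next grouped by 30 lists of pathways and gene families. The median log2FC was 0.003 over all genes tested and -0.03 over protein-coding genes, and the list median was below that of protein-coding genes in 25 of the 30, while 20 lists had more members called lower than higher. Over all protein-coding genes tested, 1.93% were called lower and 2.03% higher. The lists with the largest shares called lower were those of squamous differentiation.

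Of 18 keratins tested, 6 were called lower (33.3%) and 1 higher, with a median log2FC of -0.62. The keratins of activated epithelium fell most. KRT6A measured 77.9, 67.3 and 72.8 CPM in siNC1 and 28.6, 30.9 and 30.9 CPM in siKLF5b (log2FC -1.27, adjusted p = 7.3e-13). KRT14, the basal partner of KRT5, measured 57.5, 54.7 and 49.2 CPM against 21.9, 22.2 and 24.2 CPM (log2FC -1.24). KRT80 fell from 70.8 ± 4.34 to 31.5 ± 1.98 CPM (log2FC -1.17), but the antisense gene LINC00592 holds 101% as many counts, and reads of the pair cannot be told apart.

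KRT13, a keratin of non-cornifying mucosa, was abundant and measured 2251, 2039 and 1909 CPM in siNC1 and 1021, 1098 and 1163 CPM in siKLF5b (log2FC -0.92, SE 0.055, adjusted p = 3.3e-11). KRT5, the basal type II keratin, went from 9240, 8121 and 7893 CPM to 4630, 5580 and 5648 CPM, without overlap, and its log2FC of -0.67 (SE 0.073, adjusted p = 2.4e-07) stayed under the fold threshold. The simple-epithelial keratins KRT8 (log2FC -0.56) and KRT19 (log2FC -0.31) were also lower by adjusted p alone. KRT16 and KRT15, named after their values were seen, marked the extremes. KRT16 fell from 2.42 ± 0.606 to 0.734 ± 0.155 CPM (log2FC -1.70), while KRT15, a keratin of quiescent basal cells, rose from 308, 238 and 226 CPM to 458, 463 and 474 CPM (log2FC 0.85, SE 0.070, adjusted p = 3.8e-09).

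**Figure D3:**
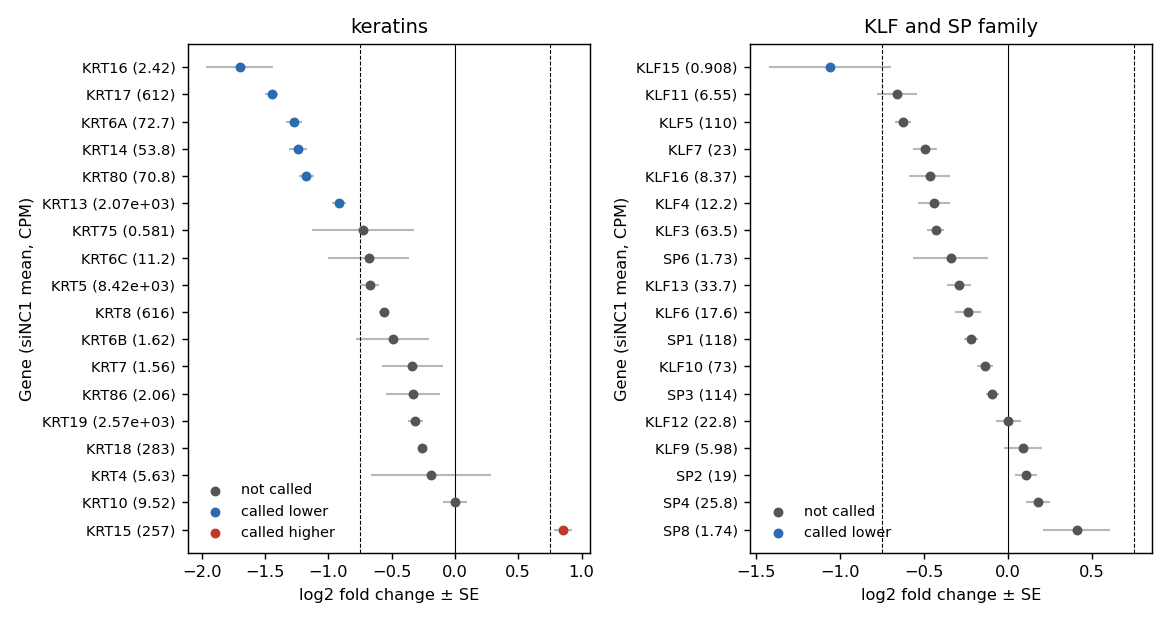
log2 fold change with its standard error for the 18 keratins and the 18 KLF and SP factors tested, with the siNC1 mean in CPM after each name; dashed lines mark the fold threshold. In the keratin panel 6 genes are called lower and KRT15 alone is called higher; in the KLF and SP panel KLF15 alone is called.

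Of 24 cornified envelope and terminal differentiation genes tested, 17 had a log2FC below 0, at a median of -0.39. At the fold threshold 9 were called lower (37.5%) and 0 higher. By adjusted p alone 11 were lower and 4 higher, against 22.7% and 16.5% of coding genes. Periplakin (PPL), a plakin that anchors the envelope, measured 190, 160 and 165 CPM in siNC1 and 94.4, 102 and 103 CPM in siKLF5b (log2FC -0.79). The claudin CLDN4 fell from 16.4 ± 2.61 to 8.10 ± 0.528 CPM (log2FC -1.02) and LYPD3 from 8.71 ± 0.769 to 5.05 ± 0.557 CPM (log2FC -0.80). Most of the rest lay near 1 to 4 CPM, and 4 of the 9 calls were left among genes averaging 100 counts or more.

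Proteases and their inhibitors followed, with 10 of 34 tested called lower (29.4%) and 0 higher, against 1.93% and 2.03% of coding genes. By adjusted p alone 20 were lower and 4 higher, against 22.7% and 16.5% of coding genes. TIMP2, a metalloprotease inhibitor, measured 56.8, 51.5 and 57.5 CPM in siNC1 and 29.1, 29.0 and 29.3 CPM in siKLF5b (log2FC -0.93, adjusted p = 1.1e-10). The elastase inhibitor PI3 fell from 6.42 ± 1.06 to 1.98 ± 0.147 CPM (log2FC -1.70), and the leukocyte protease inhibitor SLPI from 4.90 ± 0.823 to 2.51 ± 0.455 CPM (log2FC -0.95). The count came to 2 when the test took only genes averaging 100 counts or more and to 6 by DESeq2. Of the tight and adherens junction and polarity list, 3 of 33 were called lower, among them the protease PRSS8 (log2FC -0.85), while E-cadherin (CDH1) went from 197 ± 2.17 to 158 ± 4.95 CPM with a log2FC of -0.32, under the fold threshold. LAMC1, the laminin γ1 chain, was the only call among 30 hemidesmosome, integrin and basement membrane genes and measured 386, 374 and 360 CPM in siNC1 and 203, 211 and 206 CPM in siKLF5b (log2FC -0.85, adjusted p = 1.4e-13).

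The desmosome list was mixed, with 5 of 12 genes lower and 4 higher by adjusted p alone, against 22.7% and 16.5% of coding genes. At the fold threshold 0 were called lower and 1 higher (8.33%), against 1.93% and 2.03% of coding genes. The gene called higher was PERP, a p63 target that supports desmosomes. PERP was at 214, 210 and 211 CPM in siNC1 and 371, 373 and 365 CPM in siKLF5b (log2FC 0.81, SE 0.033, adjusted p = 7.7e-14). PKP2, a plakophilin, went from 85.8 ± 3.19 to 142 ± 1.95 CPM (log2FC 0.73), just under the fold threshold, and PKP1 from 252 ± 8.89 to 193 ± 1.64 CPM (log2FC -0.38). DSC2 (log2FC -0.53) and JUP (log2FC -0.30) were also lower by adjusted p alone. Beside them stood 1 of 11 S100 proteins called lower, S100A9 (log2FC -0.85), and none higher.

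**Figure D4:**
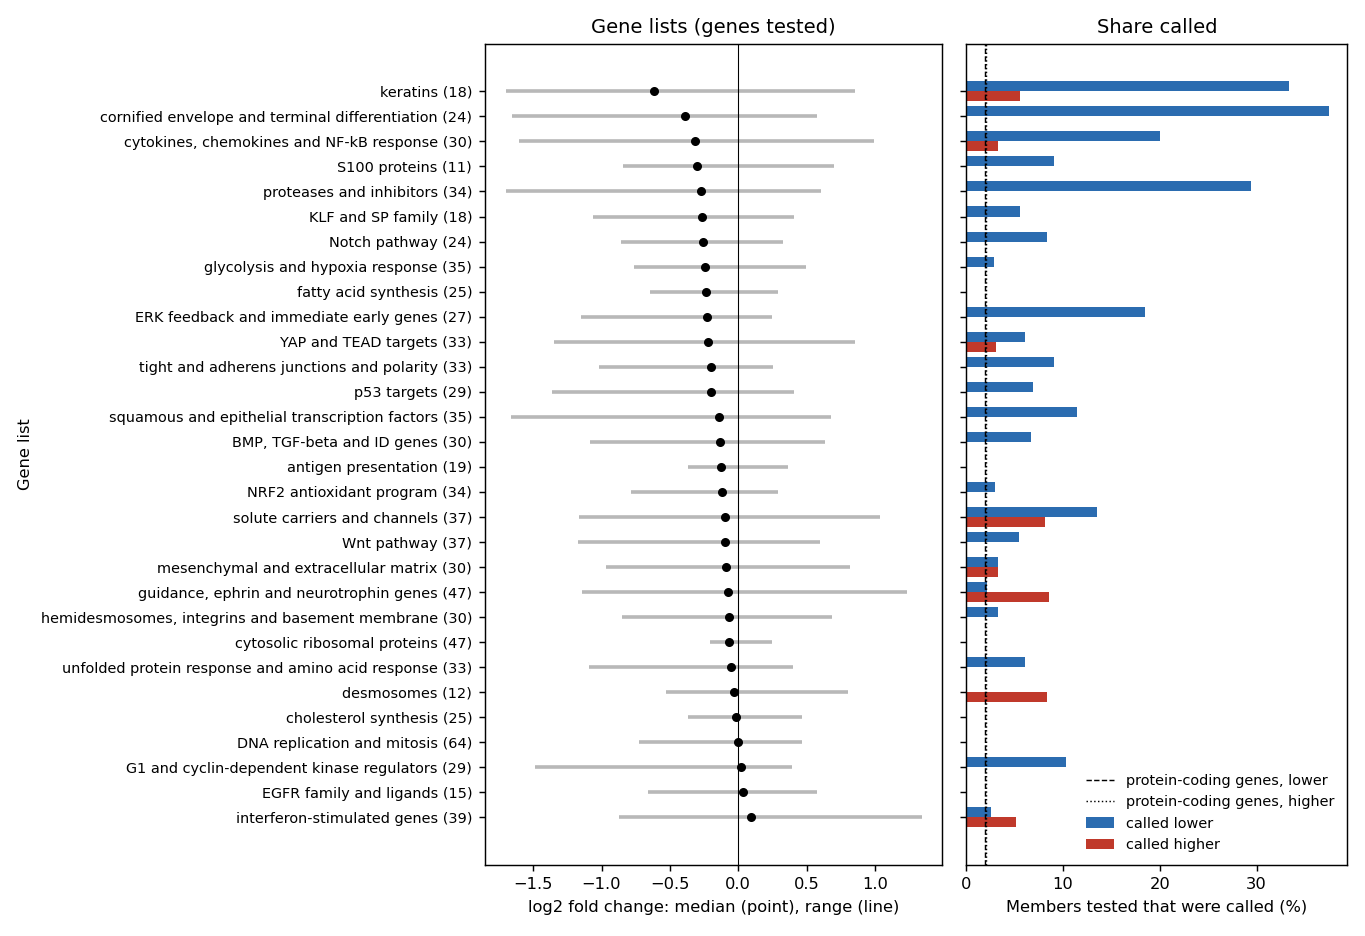
For each of the 30 gene lists, with the number of genes tested in brackets, the left panel gives the median log2 fold change as a point and its range as a line, and the right panel the share of members called lower or higher in percent. Dashed and dotted lines mark the shares over all protein-coding genes, 1.93% and 2.03%; keratins (33.3%), cornified envelope genes (37.5%) and proteases and inhibitors (29.4%) have the largest shares called lower.

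The other master regulators of squamous cells did not fall with KLF5 beyond the fold threshold. TP63 went from 665 ± 16.9 to 615 ± 32.5 CPM (log2FC -0.11, adjusted p = 0.034). GRHL2 was at 132 ± 1.18 and 139 ± 3.30 CPM (log2FC 0.07, adjusted p = 0.10). SOX2 measured 78.8, 65.1 and 70.4 CPM in siNC1 and 108, 103 and 105 CPM in siKLF5b, a log2FC of 0.56 (adjusted p = 2.6e-08), although SOX2-OT, in whose intron SOX2 lies, held 113% as many counts. Of 35 squamous and epithelial transcription factors tested, 4 were called lower (11.4%) and 0 higher, against 1.93% and 2.03% of coding genes. FOSL2, an AP-1 subunit, was the best counted of them and measured 89.1, 77.0 and 86.2 CPM in siNC1 and 50.9, 43.2 and 44.9 CPM in siKLF5b (log2FC -0.86, adjusted p = 3.9e-10).

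No member of the KLF and SP family was called higher. Of 18 tested, KLF15 alone was called lower, at a level of under 1 CPM, and 11 were lower by adjusted p alone against 22.7% of coding genes, KLF5 included. KLF3, a repressor of the family, was at 64.0, 61.2 and 65.4 CPM in siNC1 and 49.3, 45.7 and 46.3 CPM in siKLF5b (log2FC -0.43, adjusted p = 9.0e-07). KLF11 measured 6.60, 6.53 and 6.51 CPM against 3.98, 4.31 and 4.08 CPM (log2FC -0.66). SP1, the ubiquitous GC-box factor, went from 118 ± 5.83 to 101 ± 3.66 CPM (log2FC -0.22), and SP3 from 114 ± 1.09 to 107 ± 4.93 CPM (log2FC -0.10, adjusted p = 0.058).

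Feedback genes of growth factor signalling were among those that fell, while no member of the EGFR family list passed the fold threshold. ERK feedback and immediate early genes had 5 of 27 called lower (18.5%) and 0 higher. DUSP6, a cytoplasmic ERK phosphatase that ERK itself induces, measured 28.6, 28.4 and 30.0 CPM in siNC1 and 16.7, 16.5 and 16 CPM in siKLF5b (log2FC -0.82, adjusted p = 3.4e-09). The nuclear phosphatases DUSP4 (log2FC -1.12) and DUSP5 (log2FC -1.15) fell from 15.7 ± 1.25 to 7.16 ± 0.379 CPM and from 8.02 ± 0.865 to 3.63 ± 0.674 CPM. EGFR itself was at 1399 ± 32.8 and 1054 ± 16.8 CPM (log2FC -0.41), lower by adjusted p alone. Of 15 EGFR family members and ligands 0 were called, against 1.93% of coding genes called lower and 2.03% higher. By adjusted p alone 5 of them were lower and 2 higher.

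Among Notch receptors NOTCH3 fell, measuring 18.1, 16.4 and 15.6 CPM in siNC1 and 9.01, 9.15 and 9.48 CPM in siKLF5b (log2FC -0.86). NOTCH2 was at 82.8 ± 1.77 and 50.7 ± 0.194 CPM (log2FC -0.71), under the fold threshold, and 2 of 24 Notch pathway genes were called. Of 37 Wnt pathway genes 2 were called lower, led by the ligand WNT9A (14 ± 0.447 to 6.11 ± 0.882 CPM, log2FC -1.17). Of 30 BMP, TGF-β and ID genes 2 were called lower, ID1 at 12.6, 12.6 and 10.4 CPM in siNC1 and 6.47, 5.20 and 4.96 CPM in siKLF5b (log2FC -1.08) and the inhibitory SMAD7 (log2FC -0.94). YAP and TEAD targets gave 2 lower, ANKRD1 and the receptor kinase AXL (log2FC -0.97), and 1 higher, CCN2 (log2FC 0.86), of 33. The shares called lower in these Notch, Wnt, BMP and YAP lists were 8.33%, 5.41%, 6.67% and 6.06%, against 1.93% of coding genes. The share called higher among YAP and TEAD targets was 3.03%, against 2.03%.

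Cell-cycle genes beyond G1 showed no call at the fold threshold, with differences of both signs by adjusted p alone. Of 29 G1 and cyclin-dependent kinase regulators CCND1, CDKN1A and CDKN1C were called lower, the last at under 2 CPM, and CCND2 was at 254 ± 7.51 and 235 ± 2.62 CPM (log2FC -0.11). Of 64 DNA replication and mitosis genes 0 passed both thresholds, against 1.93% of coding genes called lower and 2.03% higher. By adjusted p alone 18 were lower and 20 higher, against 22.7% and 16.5% of coding genes, and the median log2FC was -0.01. The hyaluronan receptor HMMR had the smallest adjusted p in that list and measured 247, 255 and 260 CPM in siNC1 and 157, 155 and 149 CPM in siKLF5b (log2FC -0.72). Among 29 p53 targets 2 were called lower, CDKN1A and cyclin G1 (CCNG1, 82.8 ± 3.64 to 45.8 ± 3.43 CPM, log2FC -0.85).

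Metabolic lists were shifted by small steps. Of 35 glycolysis and hypoxia genes, 24 were lower and 2 higher by adjusted p alone, against 22.7% and 16.5% of coding genes. At the fold threshold 1 was called lower (2.86%), against 1.93% of coding genes. That gene was PGK1, phosphoglycerate kinase, at 441, 435 and 436 CPM in siNC1 and 268, 248 and 259 CPM in siKLF5b (log2FC -0.76, adjusted p = 6.8e-13). The glucose transporter SLC2A1 was at 172, 157 and 161 CPM against 110, 89.3 and 100.1 CPM (log2FC -0.72). Of 25 fatty acid synthesis genes 17 were lower and 1 higher by adjusted p alone and 0 passed the fold threshold. ACLY, which makes cytosolic acetyl-CoA, had a log2FC of -0.39, and the elongase ELOVL6 of -0.47, while the malic enzyme ME1 stood at 0.29. Cholesterol synthesis genes had no call and a median log2FC of -0.02. TXNRD1, thioredoxin reductase, was the only call of 34 NRF2 program genes, at 2115, 2146 and 2084 CPM in siNC1 and 1215, 1216 and 1253 CPM in siKLF5b (log2FC -0.78).

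Solute carriers and channels were called in both directions, 5 lower (13.5%) and 3 higher (8.11%) of 37, against 1.93% and 2.03% of coding genes. The large neutral amino acid transporter SLC7A5 fell from 482, 446 and 442 CPM to 249, 247 and 278 CPM (log2FC -0.83), and the gap junction gene GJA1 rose from 46.6, 47.8 and 41.2 CPM to 89.6, 82.3 and 86.1 CPM (log2FC 0.93). Guidance, ephrin and neurotrophin genes had more members called higher than lower, 4 (8.51%) against 1 (2.13%) of 47. The semaphorin SEMA3A was at 9.67 to 11.1 CPM in siNC1 and rose to 18.8 to 19.1 CPM in siKLF5b (log2FC 0.88), and NTN4 has been described above. NTRK2, the BDNF receptor, was at 132 ± 4.65 and 198 ± 9.61 CPM (log2FC 0.58), and the receptor phosphatase PTPRZ1 at 198 ± 3.97 and 250 ± 9.99 CPM (log2FC 0.33), both under the fold threshold. The single decrease was EPHB3, an ephrin-B receptor, which measured 19.4, 19.4 and 19.5 CPM in siNC1 and 8.69, 8.63 and 9.11 CPM in siKLF5b (log2FC -1.14, adjusted p = 1.9e-10).

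Cytokines, chemokines and NF-κB response genes had 6 of 30 called lower (20%) and 1 higher. IL1B measured 7.42, 8.24 and 7.29 CPM in siNC1 and 4.62, 4.11 and 3.83 CPM in siKLF5b (log2FC -0.86, adjusted p = 8.5e-06). The neutrophil chemokine CXCL1 went the other way, from 2.63 ± 0.529 to 5.28 ± 0.481 CPM (log2FC 0.99). All of these were low in these cells, and with the test limited to genes averaging 100 counts or more the number called lower came to 1, and to 3 by DESeq2. Over all coding genes 1.93% were called lower and 2.03% higher. Interferon-stimulated genes gave 1 lower (2.56%) and 2 higher (5.13%) of 39, antigen presentation genes 0 of 19 and cytosolic ribosomal protein genes 0 of 47. The unfolded protein and amino acid response had 2 called lower of 33 (6.06%). The mesenchymal and extracellular matrix list had 1 lower and 1 higher of 30 (3.33% each).

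Several called genes lay side by side on the chromosomes. Among protein-coding genes tested and ordered by start, 43 runs of 2 or more neighbours were called in the same direction, 19 lower and 24 higher, with 107 genes in all. Some runs hold genes whose spans overlap, among them ZNF664 with RFLNA, AARSD1 with PTGES3L-AARSD1 and CCND1 with LTO1. Such runs may stand for a single change. How many runs the shares called would give by themselves was not worked out. The 2 longest runs of genes called lower held 5 each, and their genes were named after their values were seen. On chromosome 2 (112829751 to 113134016) the interleukin genes IL1B, IL36G, IL36A, IL36RN and IL1RN fell by 0.86, 1.60, 1.37, 1.19 and 1.02 on the log2 scale, from 7.65 ± 0.517 CPM for IL1B and 1.12 to 2.50 CPM for the other 4.

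The second run, on chromosome 19 (15508525 to 15934867), held CYP4F22, CYP4F3, CYP4F12, CYP4F2 and CYP4F11, enzymes that ω-hydroxylate fatty acids and leukotrienes. CYP4F3 measured 186, 181 and 172 CPM in siNC1 and 84.1, 80.3 and 84.1 CPM in siKLF5b (log2FC -1.12, SE 0.038, adjusted p = 3.2e-15), and CYP4F11 measured 807, 766 and 709 CPM against 457, 434 and 443 CPM (log2FC -0.77). They are members of a gene family, and only uniquely aligned reads were counted. How many reads were left out because they align to more than a single member was not measured here. KRT14, KRT16 and KRT17 formed a run on chromosome 17, CCND1, LTO1 and ANO1 on chromosome 11, and SERPINB7, SERPINB2 and SERPINB10 on chromosome 18. The longest run called higher was PCDHA1 to PCDHA5 on chromosome 5 (log2FC 0.81 to 0.99), genes that share their last exons and therefore their reads.

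Among noncoding genes more were called higher than lower. Of 5889 long noncoding RNAs (lncRNAs) tested 86 (1.46%) were called lower and 327 (5.55%) higher. The 1817 lncRNAs that overlapped no protein-coding gene had 178 (9.80%) called higher and 21 (1.16%) lower with a median log2FC of 0.29, whereas the 4072 that overlapped a coding gene had 149 (3.66%) higher and 65 (1.60%) lower with a median of 0.04. The 8624 such lncRNAs outside coding genes with under 100 counts in every library of the table together took 0.165 to 0.169% of all counts in siKLF5b and 0.128 to 0.135% in siNC1, without overlap. The share was 0.138 to 0.147% in siSOX2b, 0.144 to 0.151% in siTP63b and 0.151 to 0.157% in siGRHL2a. This low-level signal moved with the genes called higher, and its part in that count was not tested.

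The largest noncoding decreases were ENSG00000289252, which lies opposite KRT17 and fell from 138 ± 14.4 to 45.1 ± 3.97 CPM (log2FC -1.62), SNORD16 (16.2 ± 0.206 to 6.05 ± 0.223 CPM, log2FC -1.42), a small nucleolar RNA within RPL4, CATIP-AS2 (log2FC -1.29) and LINC00592, the antisense partner of KRT80. The largest increases were PGAM1P5 (11.6 ± 1.06 to 31.5 ± 1.48 CPM, log2FC 1.44), which overlaps NTN4, ENSG00000279198 (log2FC 1.33), which overlaps TPM4, MSANTD2-AS1 (log2FC 1.31) and ENSG00000266709 (log2FC 1.26). Each of the 8 overlaps a gene with its own counts, and reads of a pair on opposite strands cannot be told apart without strand. SNORD16 and ENSG00000266709 lie on the same strand as RPL4 and HS3ST3B1, so strand would not separate those pairs.

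The calls also varied with base composition. Protein-coding genes were divided into 5 groups of equal size by the GC content of their longest transcript. In the group with the lowest GC content 0.923% were called lower and 3.42% higher, and in that with the highest 3.45% lower and 0.854% higher, with median log2FCs of 0.02 and -0.10. Groups made likewise by transcript length ranged from 1.74 to 2.26% lower and from 1.81 to 2.36% higher. With library-wise GC offsets, an alternative chosen after this trend was seen, 329 genes were called lower and 717 higher, 323 and 667 of them shared with the counts above.

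**Figure D5:**
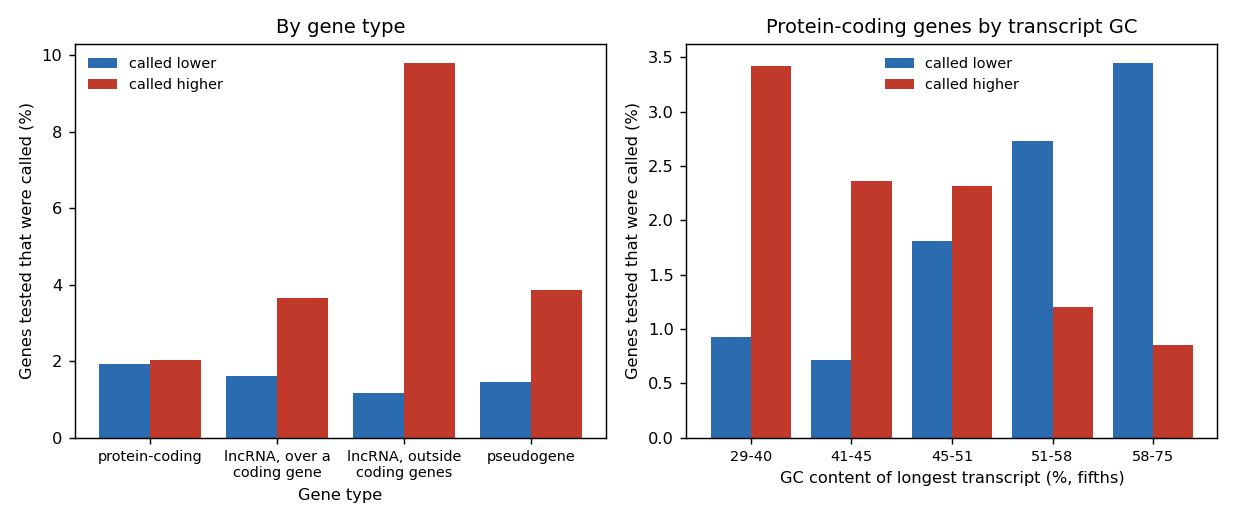
Share of genes tested that were called lower or higher, in percent, by gene type on the left and in 5 equal groups by transcript GC content among protein-coding genes on the right. Among lncRNAs outside coding genes 9.80% are called higher, and across the GC groups the share called lower goes from 0.923% in the first to 3.45% in the last while the share called higher goes from 3.42% to 0.854%.

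The leading genes were finally set beside their values in the other knockdowns, from a single fit of all 15 libraries. These comparisons share the 3 siNC1 libraries, and the column names of the siTP63b, siSOX2b and siGRHL2a libraries carry a prefix in the deposited table that the siKLF5b and siNC1 columns lack, whose meaning is not given, so that the knockdowns and the sets of columns cannot be told apart. CCND1 had a log2FC of -1.50 in siKLF5b and of 0.33, -0.01 and -0.21 in siTP63b, siSOX2b and siGRHL2a. UGCG had -1.27 in siKLF5b and -0.07, 0.07 and -0.17 in the others, and CCDC80 had 1.19 in siKLF5b and -0.12, -0.73 and -0.24.

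TPM4 differed in this respect, with 1.41 in siKLF5b and 1.30, 1.60 and 1.30 in siTP63b, siSOX2b and siGRHL2a. NTN4 had 1.22 in siKLF5b and 2.10, 2.36 and 2.2, and TXNRD1 had -0.80 in siKLF5b and -1.04, -0.72 and -1.55. The keratins differed among themselves. KRT6A had -1.29 in siKLF5b and 0.79, 1.26 and 1.37 in the others, and KRT14 had -1.26 and 0.22, 1.39 and 1.75. KRT17 had -1.47 in siKLF5b and -0.36, 0.81 and 1.02 in the others, and KRT13 was negative in each, with -0.93 in siKLF5b and -0.81, -0.45 and -0.22. KLF5 itself had -0.64 in siKLF5b and 0.29, 0.43 and 0.23 in siTP63b, siSOX2b and siGRHL2a.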

How the data were processed

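RNA-seq was analysed for 3 siKLF5b and 3 siNC1 libraries of HCC95 cells. The authors selected poly(A)+ RNA, primed it with random hexamers, sequenced paired ends, aligned to hg38 with HISAT2 2.2.1 and counted uniquely aligned reads on Gencode genes with featureCounts 2.0.1, and the deposited values are raw counts. Reads were counted over the full extent of each of the 61544 genes, introns included, and 37 mitochondrial genes held 0 counts. Strand use was not given in the sources used here. All columns were matched to libraries by name.

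Counts were analysed with edgeR 4.0.16 in R 4.3.3 (TMM factors, filterByExpr, quasi-likelihood test of the 6 libraries, Benjamini-Hochberg adjustment over all genes tested), in place of the DESeq2 of the study, whose thresholds were kept (adjusted p below 0.05, absolute log2FC above 0.75), and with DESeq2 1.42.0 as an alternative. In simulated counts of 22514 genes with 200 changed by a log2FC of 1.5, edgeR called 200 of them and 7 unchanged genes, and DESeq2 200 and 1. The changed genes were drawn from the better-counted genes alone. Their recovery therefore does not cover genes of low level or changes near the fold threshold. Types for 61399 genes were taken from Gencode 44. Overlap counts are those of the gene sharing a span. Promoter windows came from RefSeq.

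Named genes were KLF5, the 12 largest decreases and 12 largest increases among called coding genes averaging 100 counts or more whose groups did not overlap, 4 of each among other gene types, up to 5 members per list with the smallest adjusted p, and uncalled list members of at least 50 CPM in siNC1. Other called list members, KRT15, KRT16 and the genes of neighbouring runs were named after their values were seen. A member of the 12 increases is not reported here. The comparison and the lists were chosen with earlier results of these data known, so list counts and medians carry no test. Counts up to 3 were taken as the floor. Depth limits low genes most, and a p-value covers the spread between these libraries. The alternatives were RLE and upper-quartile factors, stricter and no low-count filters, the replicate number as a block, all 15 libraries, DESeq2, other fold thresholds, thinned libraries, coding genes alone, and leaving out each library, with GC offsets and a test limited to genes averaging 100 counts or more added after the data were seen.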

Additional observations from a re-analysis of the deposited data

How the results depend on the processing

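The counts of 396 genes lower and 694 higher stayed within 1.5 times under RLE and upper-quartile factors, both low-count filters, all 15 libraries, thinning and GC offsets. DESeq2 called 421 higher (and 268 lower), and coding genes fitted alone 329 higher, a smaller set of genes by construction. Without a fold threshold 3998 were lower and 3843 higher, above an absolute log2FC of 1 they were 181 and 281, and by a test against 0.75 itself (glmTreat) 50 and 52. With a mean of at least 100 counts required, 125 and 203 of 14310 were called. Leaving out each library gave 348 to 406 lower and 603 to 743 higher. The replicate numbers did not pair the libraries (correlations of same-numbered deviations -0.076, -0.0055 and -0.036), and with the replicate number as a block 360 were lower and 656 higher. KLF5 kept its direction and its adjusted p below 0.05 throughout, at a log2FC of -0.66 to -0.56. Among the genes named by the rule given above, none changed direction. The increases of AARSD1 and PTGES3L-AARSD1, named outside that rule, rested on siKLF5b replicate 3. The cause of the differences under DESeq2 and glmTreat was not tested.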

Other observations

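Some of the largest fold changes lay outside the rule for named genes, and the genes given here were chosen after their values were seen. Among genes of low level, IGFL1, a secreted member of the IGF-like family, measured 1.12, 1.02 and 1.11 CPM in siNC1 and 0.181, 0.121 and 0.126 CPM in siKLF5b (log2FC -2.87, adjusted p = 6.1e-06 by edgeR's quasi-likelihood test), and CXCL12, the ligand of CXCR4, measured 0.820, 1.07 and 1.06 CPM against 0.226, 0.242 and 0.188 CPM (log2FC -2.11). Both sets of libraries lay apart in these genes, at levels of about 1 CPM and below.

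Other large increases varied widely between the siKLF5b libraries. AARSD1, an alanyl-tRNA editing protein, was at 14.8 and 15.3 CPM in siKLF5b replicates 1 and 2 and at 204 CPM in replicate 3, against 14.8 to 17.7 CPM in siNC1, and the read-through gene PTGES3L-AARSD1 that shares its span followed it at 16, 16.2 and 206 CPM. These were the only 2 genes called higher in which a siKLF5b library exceeded both others by more than 5 times. SMIM11, a small membrane protein, had the largest log2FC of all called genes, 3.15, with 50.2, 10.9 and 2.01 CPM in the siKLF5b libraries against 1.97 to 2.78 CPM in siNC1, so that the lowest siKLF5b library fell within the siNC1 range.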
